A study of Bos taurus with 2 samples.

Results

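Protease inhibitors of the serpin, SPINK and cystatin families were followed in the testis of crossbred and Zebu bulls. The members were the gene names on the array that start with SERPIN or SPINK, and those that start with CST and are described as a cystatin. These were 47 of the 32428 gene names, with 94 of 51279 probes and 99 of 61657 non-control spots. They comprised 34 serpins, 5 SPINK genes and 8 cystatins.

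Serpins are large proteins that trap a serine protease, or in some cases a cysteine protease, by offering a loop that the protease cleaves, after which inhibitor and protease stay joined. SPINK proteins carry small Kazal domains that block trypsin-like proteases such as acrosin, the protease of the sperm acrosome. Cystatins block cysteine proteases of the papain and cathepsin type, and several members of the family are made almost only in the male tract, while a few serpins (such as SERPINA7 and SERPINH1) carry hormones or fold collagen and inhibit no protease.

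The crossbred group was 3 Holstein Friesian crossbred bulls with 50 to 75% exotic inheritance, and the Zebu group was 3 bulls of the Tharparkar breed, all 24 months old. The right testis was removed, slices from its middle were taken as whole tissue, and RNA of the 3 bulls of a group was pooled in equal amounts and hybridized with Cy3 to 1 bovine array of 60-base probes. The bulls of a group cannot be told apart in a pool, so no difference has a replicate check and none is given a p-value. The precision is limited by having 1 array per group. Breed, animal and array cannot be told apart either.

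Values are the log2 of the processed signal minus the 75th percentile of the array, so that 0 is the level of that percentile, and differences are crossbred minus Zebu on this log2 scale. Where a gene has several probes, the one with the highest mean log2 value over the arrays stands for it. A gene is called higher or lower where this difference reached 1.5 (2.83-fold) in size and the scanner software marked the brighter array as well above background. A value without that mark is called dim. Where the other array was bright, a dim side takes a bound, the higher of its own value and the lowest value well above background. A fold said to be at its bound is not a minimum, since it depends on the background correction. The SD between spots of a probe was 0.29 in crossbred and 0.18 in Zebu testis, or 0.34 for a difference, and covers spotting and scanning only. Of the non-control spots, 72% and 74.3% were well above background. Markers of spermatids had higher values on the crossbred array and those of Sertoli, Leydig and peritubular cells lower values, by medians of 1.73, -0.90, -0.79 and -0.77.

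Of the 47 genes, 34 had signal well above background in both pools, 4 only in the crossbred pool, 1 only in the Zebu pool and 8 in neither. In crossbred testis 9 genes (19.1%) were higher, against 5.43% of all gene names, and 1 gene (2.13%) was lower, against 2.23%. Among the 34 genes bright on both arrays, 8 (23.5%) were higher and none was lower, against 6.32% and 1.74% of such gene names. Counted by probe, 13 of 94 (13.8%) were higher and 2 (2.13%) lower, against 4.77% and 2.32% of all probes. The higher genes were SERPINA3-1, SERPINA3-2, SERPINA3-3, SERPINA3-6, SERPINB2, SERPIND1, SPINK1, CST8 and CSTL1, and the lower gene was SERPINF2. The median over the 47 genes, with a dim side at its bound and 0 where no bound could be given, was 0.17, against 0.00 over all gene names. Fewer cells of a type and less RNA per cell cannot be told apart in whole tissue.

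**Figure D1:**
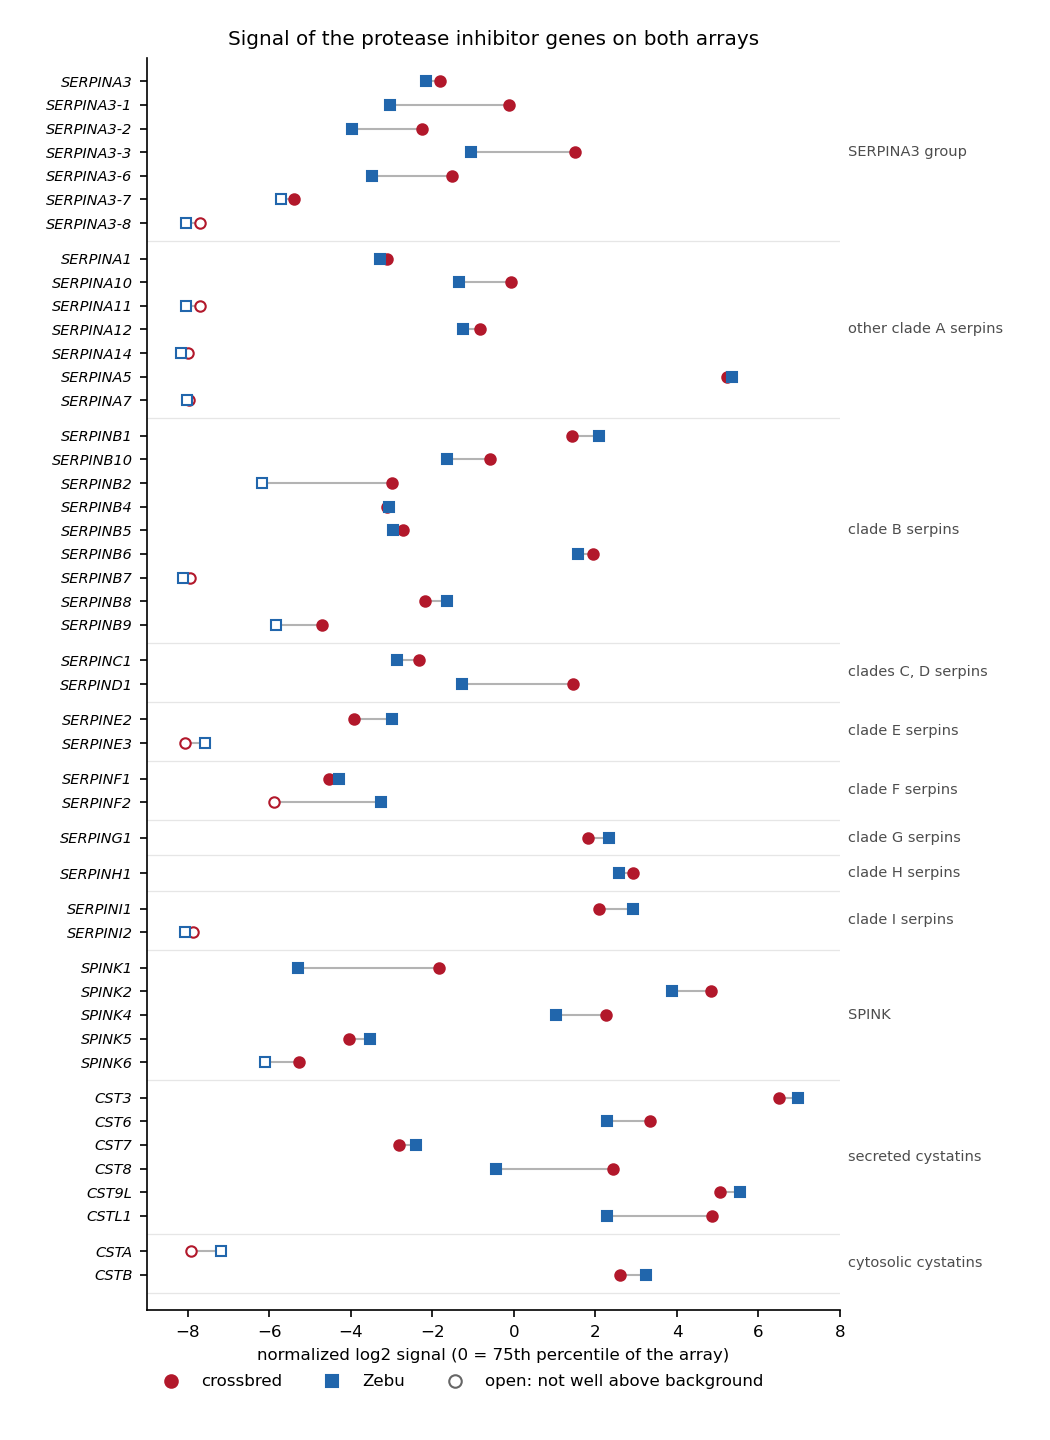
Normalized log2 signal (horizontal axis, 0 is the 75th percentile of the array) of 46 of the 47 genes on the crossbred array (circles) and the Zebu array (squares), 1 probe per gene, grouped by family, with open symbols for values not well above background. The widest gaps with both symbols filled belong to SPINK1 (3.45), SERPINA3-1 (2.90), CST8 (2.87) and SERPIND1 (2.73), while most other pairs lie close together.

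Of the 6 secreted cystatins, CST8 and CSTL1 were higher in crossbred testis. CST8, also called CRES, is a cystatin-related protein known from spermatids and the epididymis that lacks the usual protease-binding sites. Its signal was 2.43 in the crossbred pool and -0.44 in the Zebu pool, which is 2.87 (7.29-fold) higher. Its second probe, at a different place of the array, had 2.32 and -0.66, a difference of 2.98. The 2 probes adjoin on chromosome 13 of the build HGSC Btau_3.1, at chr13:42285059-42285118 and chr13:42285103-42288657, plus strand. They share 16 bases, shown in capitals, and the second crosses an intron, so that its 60 bases span 3555 bases of the genome. CSTL1, cystatin-like 1, a gene of the same cluster and of unsettled function, had 4.85 and 2.29 at chr13:42246533-42246592, a difference of 2.56 (5.88-fold). Its single probe is shown with those of CST8, because these oligos carry the rises among the cystatins.
CST8, first probe: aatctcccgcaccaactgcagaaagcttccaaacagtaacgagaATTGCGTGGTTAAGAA
CST8, second probe: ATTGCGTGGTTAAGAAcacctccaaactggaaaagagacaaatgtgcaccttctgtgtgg
CSTL1: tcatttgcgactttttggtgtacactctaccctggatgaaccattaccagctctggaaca

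The 3 other members of the cluster had slightly lower signals in crossbred testis. In the order of the chromosome and counting members only, CSTL1 is followed after 38.5 kb by CST8, after a further 36.6 kb by CST9L, after 20.5 kb by CST3 and after 392 kb by CST7. CST3, cystatin C, the general secreted inhibitor of cathepsins, had 6.51 in crossbred and 6.97 in Zebu testis in the mean of 2 spots, a difference of -0.46, against -0.97 at its other probe. CST9L, a testis cystatin that RefSeq lists as LOC505033 in ARS-UCD2.0, had 5.05 and 5.54, a difference of -0.49, and -0.10 at its other probe. CST7, cystatin F of immune cells, had -2.81 and -2.41, a difference of -0.40. Between CSTL1 and CST8 the array holds 2 cystatins outside the members, cystatin SC (MGC133636) at chr13:42263373-42263432 and LOC617402 at chr13:42268900-42271825. Both were bright on both arrays and did not pass the threshold, with differences of -0.11 and -0.42. CST6, cystatin M/E, which lies on chromosome 29, had 3.35 and 2.29, a difference of 1.06 that stayed under 1.5.

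The cytosolic cystatins, or stefins, did not pass the threshold. CSTB, cystatin B, an inhibitor of cathepsins inside the cell, had 2.61 in crossbred and 3.24 in Zebu testis, a difference of -0.63. Its 2 other probes differed by -0.57 and -0.33, and 1 of these lies at a separate locus of chromosome 1, so RefSeq gives the 3 probes to LOC512805 and LOC514170. CSTA, cystatin A of skin and lymphoid tissue, was not well above background on either array.

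Among the serpins, the rises were gathered in the SERPINA3 group, the cattle relatives of alpha-1-antichymotrypsin, which are named endopins and inhibit chymotrypsin-like, elastase-like or trypsin-like proteases. Of its 7 gene names 4 (57.1%) were higher and none was lower, against 5.43% and 2.23% of all gene names. The 4 may not be separate measurements, as set out below. SERPINA3-1 had -0.13 in the crossbred pool against -3.03 in the Zebu pool, and was higher by 2.90 (7.45-fold). SERPINA3-3 had 1.49 and -1.05, a difference of 2.53 (5.79-fold). SERPINA3-6 had -1.53 and -3.47, a difference of 1.94, and SERPINA3-2 had -2.26 and -3.96, a difference of 1.70. All 4 were bright on both arrays and each has a single probe with 1 spot, so no second probe checks them. After normexp background correction SERPINA3-6 differed by 1.43 and SERPINA3-2 by 1.09, under the threshold. The spot of SERPINA3-2 also had 2 of its 6 nearest spots lower by 1.5 or more, and it is lost where such spots are left out.

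Whether the 4 gene names are separate measurements cannot be settled from the array's own annotation. It lists the transcripts of other SERPINA3 genes beside each of these probes, namely SERPINA3, SERPINA3-2 and SERPINA3-6 beside the probe of SERPINA3-1, and SERPINA3-1 beside that of SERPINA3-3. Counted as 1 gene they leave 6 higher members in place of 9, and with probes listed for 1 gene only 5 of 42 members were higher. Over all gene names, where neither rule was applied, 5.43% were higher. The probe of SERPINA3-2 overlaps a probe named SERPINA3 by 34 bases, 33 of which match. The mismatch is C32T, counted from the 5′ end of the SERPINA3 probe, whose base is given first. That SERPINA3 probe was not well above background on either array, with -6.59 and -6.26, although it shares these bases with a probe that was. The overlap is in capitals below, and the probes of SERPINA3-1 and SERPINA3-6, for which no overlap of 20 bases or more was found, are shown for comparison.
SERPINA3, dim probe: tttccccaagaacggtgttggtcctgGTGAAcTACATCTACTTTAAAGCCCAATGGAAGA
SERPINA3-2: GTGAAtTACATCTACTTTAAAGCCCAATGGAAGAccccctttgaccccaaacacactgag
SERPINA3-1: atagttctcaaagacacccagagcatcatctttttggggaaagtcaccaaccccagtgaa
SERPINA3-6: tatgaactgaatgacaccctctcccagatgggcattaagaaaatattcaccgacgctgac

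In the annotation of Btau_3.1 the raised names follow each other in a row of 13 SERPINA genes on chromosome 21, placed by the probe used for each, which runs over 493 kb. All 4 lie on the plus strand. SERPINA3-2 lies at chr21:59539395-59541862, SERPINA3-1 at chr21:59597716-59597775, SERPINA3-6 at chr21:59646885-59646944 and SERPINA3-3 at chr21:59648401-59648460. The dim SERPINA3 probe lies between SERPINA3-1 and SERPINA3-6, at chr21:59643548-59645442, and a probe of endopin 2C (LOC784932), which is no member and was dim on both arrays, lies between SERPINA3-2 and SERPINA3-1, at chr21:59570815-59570874. SERPINA3-7, 29.5 kb further on, was well above background on the crossbred array only by its brightest probe, with -5.40 and -5.71, and a second probe measured on both arrays differed by 0.42. SERPINA3 by its brighter probe had -1.81 and -2.15, a difference of 0.34, and SERPINA3-8 was not well above background on either array.

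**Figure D2:**
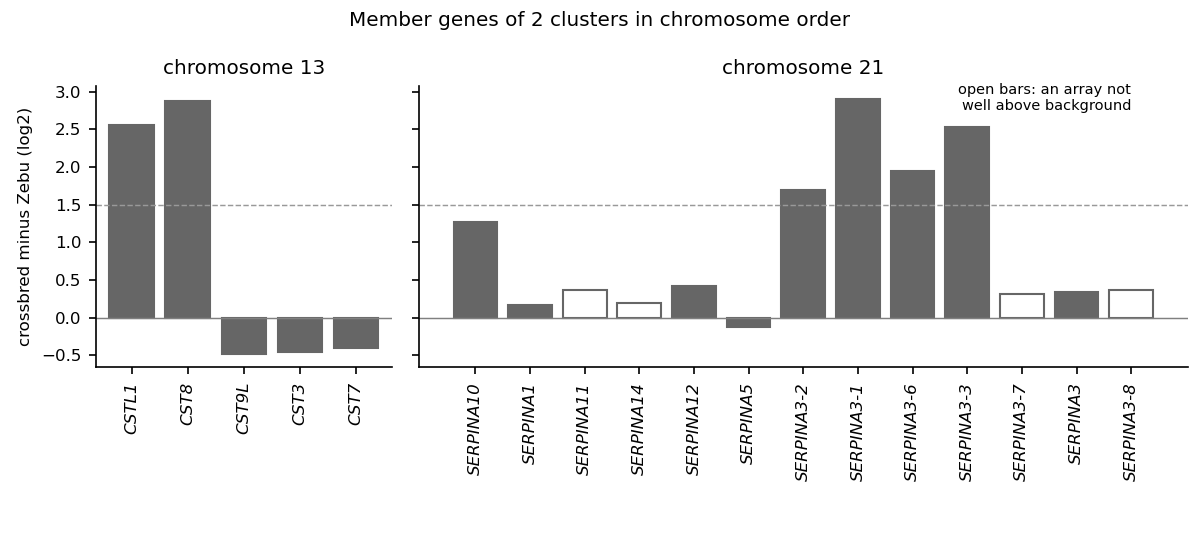
Difference between the arrays (crossbred minus Zebu, log2, vertical axis) for 5 cystatin genes on chromosome 13 and 13 SERPINA genes on chromosome 21, by the probe used for each member, in chromosome order and not to scale along it, with the dashed line at 1.5 and open bars where an array was not well above background. CSTL1 and CST8 stand at 2.56 and 2.87 beside 3 other members between -0.49 and -0.40, and the 4 bars from SERPINA3-2 to SERPINA3-3 run from 1.70 to 2.90.

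The 7 other clade A serpins stayed under the threshold. SERPINA5, the protein C inhibitor, which also inhibits acrosin and is abundant in the male tract, had 5.22 in crossbred and 5.35 in Zebu testis, a difference of -0.13. It lies 19.2 kb before SERPINA3-2. SERPINA10, the protein Z-dependent inhibitor of coagulation factor X, had -0.08 and -1.35, a difference of 1.27 and the nearest to the threshold from below, while its 2 other probes were dim on both arrays. SERPINA1, alpha-1-antitrypsin, which inhibits neutrophil elastase, had -3.11 and -3.28, a difference of 0.17 that is under the spot SD. SERPINA12, vaspin, differed by 0.42. SERPINA7, the carrier of thyroxine, SERPINA14, the uterine serpin, and SERPINA11 were not well above background on either array.

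Of the clade B serpins, which mostly act inside cells, SERPINB2 was higher and the 8 others were not. SERPINB2 is plasminogen activator inhibitor 2, which blocks urokinase. The array gives this name to probes at 2 places of chromosome 24, and both probes that rose are dim on the Zebu array. At chr24:64909962-64910021, the probe used, the values were -2.98 and -6.17, which is 7.78-fold higher in crossbred testis at its bound. At chr24:13053163-13053222, where RefSeq names the transcript LOC281376, the values were -2.66 and -6.71, 9.72-fold higher at its bound. The last SERPINB2 probe, at chr24:13052246-13052305, was not well above background on either array, with -7.68 and -7.28. After normexp background correction SERPINB2 differed by 1.30, which is under the threshold. Both probes that rose are shown because they share a name but read separate loci.
SERPINB2, used probe: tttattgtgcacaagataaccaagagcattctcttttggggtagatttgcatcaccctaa
SERPINB2, LOC281376 locus: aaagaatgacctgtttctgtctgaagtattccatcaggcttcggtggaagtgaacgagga

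The other clade B genes differed by less than 1.5. SERPINB6, an inhibitor of cathepsin G and thrombin, had 6 probes, none of them dim, whose differences ran from 0.38 to 0.65 with a median of 0.51. All 6 thus had the same sign and lay within 0.27 of each other. SERPINB10, bomapin of bone marrow cells, differed by 1.07. SERPINB9, the inhibitor of granzyme B, was well above background on the crossbred array only and was 2.18-fold higher at its bound, under the threshold. SERPINB5, maspin, differed by 0.26 at the probe used and by 1.37 at its other probe. SERPINB1, the leukocyte elastase inhibitor, differed by -0.66, SERPINB4 by -0.05 and SERPINB8 by -0.54, and 3 more probes of SERPINB4 were dim on both arrays. The 3 probes of SERPINB8 measured on both arrays ran from -0.54 to 0.31. SERPINB7 was not well above background on either array.

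SERPIND1, heparin cofactor II, an inhibitor of thrombin, was higher, and antithrombin was not. SERPIND1 had 1.45 in crossbred and -1.28 in Zebu testis at chr17:75594143-75594201, a difference of 2.73 (6.65-fold). Its second probe, which crosses an intron within chr17:75592038-75593245, had -1.85 and -4.77, a difference of 2.92. The third, nearest the 5′ end of the gene at chr17:75590681-75590740, had -3.46 and -4.06, a difference of 0.60. The 3 probes agreed in sign but spanned 2.33, the widest range of any member with several probes measured on both arrays. The sequence of the intron-crossing probe is given because, by the array's annotation, the spliced RNA holds it as 1 run and the genome does not.
SERPIND1, intron-crossing probe: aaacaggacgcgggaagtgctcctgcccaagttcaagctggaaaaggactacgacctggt
SERPINC1, antithrombin, had -2.32 and -2.86, higher by 0.54, and -0.14 at its other probe.

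The fibrinolysis serpins included the only fall. SERPINF2, alpha-2-antiplasmin, which inhibits plasmin, was bright on the Zebu array and dim on the crossbred array, with -5.89 in crossbred and -3.27 in Zebu testis at chr19:22930737-22930796. With the crossbred side at its bound, it was 5.69-fold lower in crossbred testis. It has 1 probe with 1 spot, and after normexp background correction it differed by -1.12, under the threshold. SERPINF1, the pigment epithelium-derived factor, lies 19.4 kb further along the same strand and had -4.53 and -4.29, a difference of -0.25. SERPINE2, protease nexin 1, an inhibitor of thrombin and plasminogen activators, had -3.92 and -2.98, a difference of -0.94. SERPINE3 was dim on both arrays.

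The remaining serpins stayed within 1 of zero. SERPING1, the C1 inhibitor of complement, had 1.81 in crossbred and 2.34 in Zebu testis, a difference of -0.52. Values at its 3 other probes ran from -0.51 to -0.04. SERPINI1, neuroserpin, had 2.09 and 2.92, and both of its probes differed by -0.82. SERPINH1, the collagen chaperone HSP47, had 2.92 and 2.58, a difference of 0.34, while its 2 other probes differed by -0.46 and -0.62. The last of these is the single member spot that lies in a dark place of the crossbred array (rows 54 to 99, columns 35 to 46), where 4 of its 6 nearest spots were lower by 1.5 or more. No member spot lay in the place where that array was too bright. SERPINI2, pancpin, was not well above background on either array.

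Of the SPINK genes, SPINK1 was higher and the 4 others were not. SPINK1, the trypsin inhibitor of pancreatic juice and seminal vesicle, had -1.84 in crossbred and -5.29 in Zebu testis by its brighter probe, a difference of 3.45, on an unplaced contig. The Zebu value lay near the lowest value well above background on that array (-5.94). After normexp background correction SPINK1 differed by 2.12. Its 2 probes overlap by 36 bases, so they are not independent reads of the transcript, although they lie at different places of the array. SPINK2, the acrosin inhibitor of testis and sperm, which RefSeq lists as SPINK2B, had 4.84 and 3.88, a difference of 0.96. A transcript outside the members, whose probe matches that of SPINK2 at 41 of 47 bases, differed by -0.07. SPINK4, known from goblet cells of the gut, had 2.25 and 1.04 in the mean of 2 spots, a difference of 1.21, and the spots lay 0.00 apart on the crossbred and 0.17 apart on the Zebu array. SPINK6, a kallikrein inhibitor of skin, was well above background on the crossbred array only and 1.58-fold higher at its bound. Another probe on the same transcript, outside the members and bright on both arrays, had -0.46 and -0.09, a difference of -0.36. SPINK5, LEKTI, which restrains skin kallikreins, had -4.05 and -3.54, a difference of -0.51. A second SPINK5 probe, dim on the crossbred array, was 1.39-fold lower at its bound. With that of SERPINF2 it is 1 of the 2 lower probes. The 2 others were dim on both arrays.

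**Figure D3:**
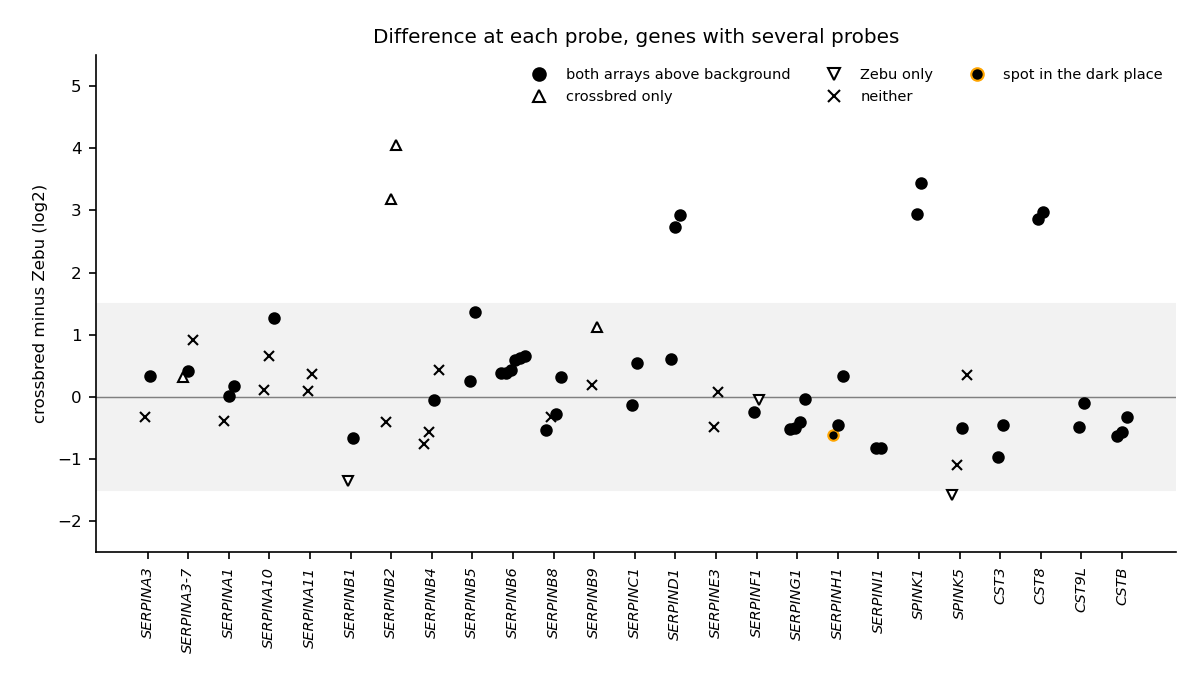
Difference between the arrays (crossbred minus Zebu, log2, vertical axis) at each probe of 25 of the 26 member genes with more than 1 probe, with filled circles where both arrays were well above background, triangles where 1 array was (pointing up for crossbred, down for Zebu), crosses where neither was, and a grey band from -1.5 to 1.5. CST8 and SPINK1 have both probes above the band, SERPIND1 has 2 of 3, SERPINB2 has 2 of 3, and the 6 probes of SERPINB6 lie between 0.38 and 0.65.

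Over the 10 higher or lower genes, 6 other probes were on the array. Of these, 5 differed in the direction of the probe used and 4 passed 1.5, and the sixth was the SERPINB2 probe dim on both arrays. Not all that passed are second reads of the same transcript. The SERPINB2 probe reads a separate locus, and the SPINK1 probe overlaps the one used by 36 bases. The raised SERPINA3 names, CSTL1 and SERPINF2 had no other probe. For 15 member genes at least 2 probes were bright on both arrays, and in 12 of them (80%) all such probes had the same sign, against 66.8% of 8185 gene names. The exceptions were SERPINB8, SERPINC1 and SERPINH1. The median range between the probes of a gene was 0.49 for the members and 0.39 for all such names. For the probes used of the 10 higher or lower genes, at most 1 of the 6 nearest spots passed 1.5 in the same direction.

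The array also holds transcripts of these families under other names. A search of the descriptions for serpin, endopin, cystatin or Kazal type gave 37 further probes. Of them 14 were bright on both arrays and 18 dim on both, 6 were higher and 1 was lower. Over all probes 4.77% were higher and 2.32% lower. The 6 are not all further genes, since the cystatin-like 1 and SERPINB2 probes among them carry descriptions of members already counted as higher. A cystatin-11-like transcript (XM_601439) had -1.28 in crossbred and -4.54 in Zebu testis, a difference of 3.26. The 2 probes described as cystatin-like 1, NP13358965 and XM_002692164, differed by 2.40 and 2.64, close to the value of CSTL1. A Kazal type 9 transcript (XM_002706654) had 0.29 and -1.78, a difference of 2.08. A Kazal type 8-like one (XM_002697082) was 7.36-fold higher at its bound. A model transcript described as SERPINB2 (XM_002697669) had -1.28 and -5.86, 23.9-fold higher at its bound. Another with that description (XM_002683805) was the probe counted as lower. It had -7.95 on the crossbred array, where it was dim, and -5.08 on the Zebu array, 1.625-fold lower at its bound. The 2 cystatins between CSTL1 and CST8 had 4.95 and 5.38 (LOC617402) and 3.65 and 3.76 (MGC133636) in crossbred and Zebu testis. A Serpin A3-1-like transcript, brighter than the raised SERPINA3 probes, had 2.25 and 2.13, a difference of 0.12. A cystatin-8-like transcript had -5.54 in crossbred testis, where it was dim, and -4.92 in Zebu testis. These probes were picked by their text after the members were set and enter no count above.

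Among the serine proteases that these inhibitors act on, some were higher and most were not. Of 37 serine proteases on the array from a list of 43, 26 were bright on both arrays. Of the 37, 5 (13.5%) were higher and 1 (2.70%) was lower, against 5.43% and 2.23% of all gene names. The median was 0.00 over the 37 and 0.29 over the 26 bright ones. GZMB, granzyme B, the target of SERPINB9, differed by 2.64, with -1.05 in crossbred and -3.70 in Zebu testis. MASP1, a protease of the lectin pathway that SERPING1 restrains, differed by 2.03, and MASP2 was 5.48-fold higher at its bound. PRSS21, testisin, a protease of spermatids, differed by 1.93, and PRSS1, trypsin and the target of SPINK1, was also among the 5. KLK6, a kallikrein, was the 1 lower, dim on the crossbred array and only 1.13-fold lower at its bound. F2, thrombin, the target of SERPIND1 and SERPINC1, differed by 0.92, PLAU, urokinase, by 0.92, PLAT, tissue plasminogen activator, by 0.14, PLG, plasminogen, by -0.24 and ACR, acrosin, by 0.65. None of the 12 cysteine proteases measured, from a list of 14, was higher or lower, and their median was -0.40 with a range from -1.21 (CTSK) to 0.53 (CTSH). CST8, which lacks the usual protease-binding sites, and CSTL1 were higher on the same array. A link of either to these proteases was not tested.

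Inhibitors of other families were higher in 1 case and lower in 3. Of 29 on the array from a list of 40, 22 were bright on both arrays, with a median of -0.02 over the 29. Of the 29, 1 (3.45%) was higher and 3 (10.3%) were lower, against 5.43% and 2.23% of all gene names. WFDC11, a whey acidic protein domain gene, differed by 1.80. SLPI, the secretory leukocyte protease inhibitor, differed by -1.52 and PCSK1N, an inhibitor of a prohormone convertase, by -1.53. Both passed the threshold by less than the spot SD. FETUB, fetuin B, was the last of the 3, dim on the crossbred array and only 1.015-fold lower at its bound. CAST, calpastatin, the inhibitor of calpains, differed by 1.43. VTN, vitronectin, an adhesive protein of plasma and matrix, differed by 3.07, with -1.84 and -4.90, and PLAUR, the urokinase receptor, by -0.95.

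Markers of cell types differed between the arrays as well, and their part in the values above was not tested. All 10 spermatid markers were bright on both arrays and 7 were higher, with a median of 1.73, and their summed signal, in multiples of the 75th percentile, was 476 on the crossbred and 258 on the Zebu array (PRM1 0.36, ODF1 2.13, TSSK6 2.77). The 6 spermatocyte markers had a median of 0.45, with sums of 22.9 and 17.5, and the 7 spermatogonial markers one of -0.71, with 30.6 and 42.8. Of the somatic cells, 9 Sertoli markers had a median of -0.90 with sums of 55.0 and 104 (DHH -1.53), 6 Leydig markers -0.79 with 87.8 and 132 (CYP17A1 -1.68, HSD3B1 -1.77), and 6 peritubular and smooth muscle markers -0.77 with 39.9 and 68.8. INHBB, in the Sertoli list, was dim on both arrays. The 6 endothelial markers had a median of 0.11 with sums of 5.60 and 2.83, and 7 macrophage markers 0.13 with 28.0 and 19.1. A sum follows its brightest genes. A single gene made up most of the endothelial sums, and a single gene most of the gap between the macrophage sums. For the liver and plasma list, whose secreted proteins include many serpins, the median over 10 genes was -0.16 with sums of 43.4 and 46.2, and ALB, albumin, differed by -1.08. Of 6 epididymis markers on the array 3 were dim on both arrays (ADAM28, CRISP1 and RNASE10). GPX5 was 11.1-fold higher on the crossbred array at its bound. The epididymis sums were 18.9 and 24.9, nearly all from a single gene other than GPX5. Among 5 red blood cell genes, HBA differed by -2.15, 3 were dim on both arrays (ALAS2, HBB and SLC4A1), and the sums were 0.595 and 2.39.

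**Figure D4:**
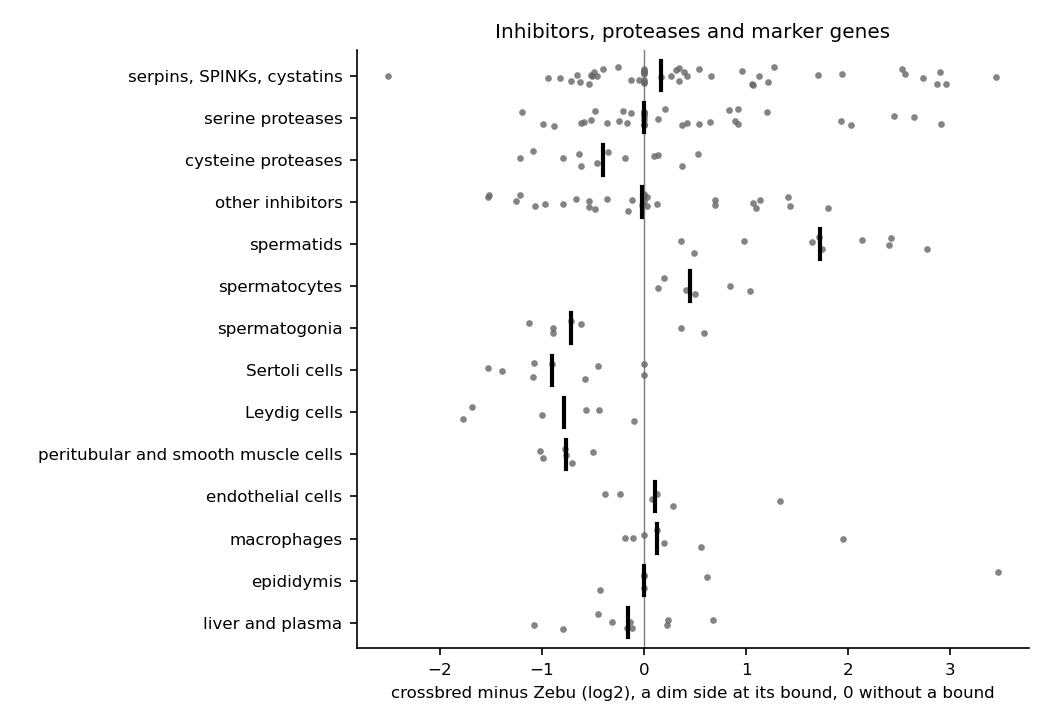
Difference between the arrays (crossbred minus Zebu, log2, horizontal axis) for each gene of the 47 members, of the protease and inhibitor lists and of the marker lists, with a dim side at its bound and 0 where no bound could be given, and a black bar at the median of each list. The members have a median of 0.17 and a tail of higher genes, the cysteine proteases lie at -0.40, and the spermatid list lies at 1.73 against -0.90 for Sertoli cells.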

How the data were processed

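Testis RNA of 3 crossbred and 3 Zebu bulls was pooled by group and hybridized to 1 array each with Cy3, and groups were taken from the sample labels. The authors deposited for each spot a processed signal intensity from the scanner software (Agilent Feature Extraction), background-subtracted and not normalized between arrays, and log2 values shifted by the 75th percentile. Controls and 13 spots flagged as outliers were dropped. For each probe the mean log2 signal of its spots was taken and shifted by the 75th percentile (1176 and 1233 as signal). A dim side was set to the higher of its own value and the lowest value well above background (-5.78 crossbred, -5.94 Zebu), and no fold was given where neither array was bright.

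The members and lists were chosen with earlier results of these data known. The 36 genes to be named had a probe past 1.5, at least 3 probes, a spot in a marked place, a mention in the study or a textbook role, and the 11 other members were named to account for the rest. The values of 1 member and of 1 marker gene are not reported here, although both enter the counts and medians. Gene names are those of the array. RefSeq names came from the ARS-UCD2.0 gene table, in which 37 of the 47 genes had an entry for their accession and 33 of these the same symbol. Probe sequences and Btau_3.1 positions are from the deposited array annotation. Shared stretches of probes were sought with words of 16 bases and kept from 20 bases on.

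The alternatives were other background corrections, normalizations, thresholds, filters, probe rules and spots left out. Steps were tested on simulated data. The normexp correction, with an offset of 50, used limma 3.58.1 in R 4.3.3. All else was done in pandas 2.3.3 and numpy 2.4.6 under Python 3.11.15, with scipy 1.17.1 for neighbouring spots.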

Additional observations from a re-analysis of the deposited data

How the results depend on the processing

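The counts of 9 higher genes and 1 lower gene did not change when arrays were shifted by their median or by a 75th percentile of bright probes only, when they were quantile normalized, when the log2 values of the authors were used, when the probes of a gene were averaged, with no filter on dim probes, with the marked places left out, or, chosen after seeing the data, with the probe with the highest value on either array. After normexp background correction 6 genes were higher and 0 lower, and over all gene names 1030 were higher and 169 lower in place of 1762 and 722. With both arrays required to be well above background 8 were higher and 0 lower (1444 and 397 over all gene names). Without spots that had 2 or more adjacent calls 8 were higher (1608 over all gene names). A threshold of 1 gave 14 higher genes and 1 lower (3173 and 2196 over all gene names), and a linear fold of 1.5 gave 16 and 6 (5290 and 5504 over all gene names). Every probe by itself gave 13 and 2 (2444 and 1190 over all probes). Chosen after seeing the data, probes listed for 1 gene only gave 5 higher genes of 42, a rule not applied over all gene names. The cause was not tested where it is not the alternative's own construction.

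The median over the members ran from 0.00 to 0.34. Of 287 recomputed values of named genes, 275 moved by less than the spot SD, 12 moved by more and none of the called genes changed sign. Between them SPINK1 ran from 2.12 to 3.47, CST8 from 2.73 to 2.92 and CSTL1 from 2.42 to 2.56. Leaving out a replicate was not possible with 1 array per group. No paired analysis was possible because each group has 1 pooled sample. Signal over background limits SERPINB2, SERPINF2 and SPINK6, which were dim on 1 array.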
